A study of Homo sapiens with 16 samples.

Results

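The change between the first and the second day of 5-fluorouracil (5-FU) was measured in a scramble line of SW620, human colorectal cancer cells in culture, with a control short hairpin RNA of scrambled sequence. Messenger RNA was sequenced in 3 scramble libraries after 24 h and 2 scramble libraries after 48 h in 5 µM 5-FU, and these 5 of the 16 libraries of the series form the comparison. The other libraries were 3 of untreated scramble cells and 3 untreated, 3 at 24 h and 2 at 48 h of a second SW620 line, shATF4, whose hairpin targets the transcription factor gene ATF4, in the same drug at the same dose. Of 58735 genes in the deposited count table, 17309 passed a filter on low counts and were tested, and all of them enter the account. Each line carried a single hairpin, so differences between the lines cannot be told apart from clonal or off-target differences. The 48 h libraries carry a treatment tag that reads 24 h and were placed by their titles and by the series' design text, which both name a 48 h group. No time in culture is stated for the untreated libraries, and for 48 h against 24 h the extra day in drug cannot be told apart from an extra day in culture. Whether replicates came from separate cultures is not stated. The p-values therefore reflect only how far these libraries differed from each other, which may be technical spread.

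5-FU is a pyrimidine analogue. One of its metabolites blocks thymidylate synthase and starves DNA synthesis of thymidine, and others are built into RNA and DNA, where they disturb ribosomal RNA processing and cause strand damage. Cells that cannot copy their DNA stall in S phase, may later pass into mitosis, and answer with checkpoint, stress and inflammatory programmes that unfold over days. Replication-dependent histone genes are normally expressed in S phase in step with DNA synthesis, and most of their transcripts end in a stem-loop without a poly(A) tail. The libraries were made from poly(A)-selected RNA, so histone values here count only transcripts that carry a tail. In bulk RNA, fewer cells of a kind and less RNA per cell cannot be told apart.

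The 5 libraries held 14920653 to 16706561 counts each. Cytosolic ribosomal protein genes took 4.19% to 4.25% of counts at 24 h and 3.05% to 3.07% at 48 h, and mitochondrially encoded protein genes took 1.07% to 1.22% at 24 h and 1.47% to 1.49% at 48 h. Epithelial markers of colon carcinoma cells were present in all 5 libraries, with EPCAM at 380.8 to 423.1 CPM (counts per 1000000 counts of the library's size as scaled by TMM) and KRT8 at 3788 to 5216 CPM, while the colonic genes CDX1 and LGALS4 were below the filter. PTPRC, CD3E and CD68 of leukocytes and COL1A2 and DCN of fibroblasts were below the filter as well. Other markers passed it: 2 of 8 listed for leukocytes, 4 of 8 for fibroblasts and 3 of 7 for endothelium, described below. In shATF4 cells in drug, ATF4 was at 91.1, 109 and 130 CPM at 24 h and 114 and 118 CPM at 48 h, below all 5 scramble libraries, which had 270, 285 and 280 CPM at 24 h and 331 and 333 CPM at 48 h. A pair of libraries outside the comparison stood apart from their groups, scramble untreated replicate 2 and shATF4 24 h replicate 3.

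Gene expression moved widely on the second day. At an adjusted p under 0.05 in edgeR's quasi-likelihood test (a gene is then said to be called), 6621 genes differed between 48 h and 24 h, 38.3% of those tested. Of these 3249 were higher (18.8% of tested genes) and 3372 lower (19.5%), and the median log2 change over all genes was 0.02. These shares are the background for the second-day count of each list below. For first-day counts the background is 24 h against untreated, where 21.8% of tested genes were higher and 22.2% lower. The large changes on the second day were mostly rises: 1242 genes rose at least 2-fold (7.18%) and 229 fell at least 2-fold (1.32%). In all they were 8.5% of tested genes. These 1471 genes became 816 under a stricter count filter (at least 50 counts in at least 2 libraries), which tests fewer genes. The balance of directions rested on the scaling. Called genes were 49.1% higher with TMM, 60.2% with upper-quartile scaling and 71.1% with total counts only, where the median of all genes moved to 0.16. Without 48 h replicate 2 the number of called genes was 4363, and 97.2% of these were among the 6621.

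**Figure D1:**
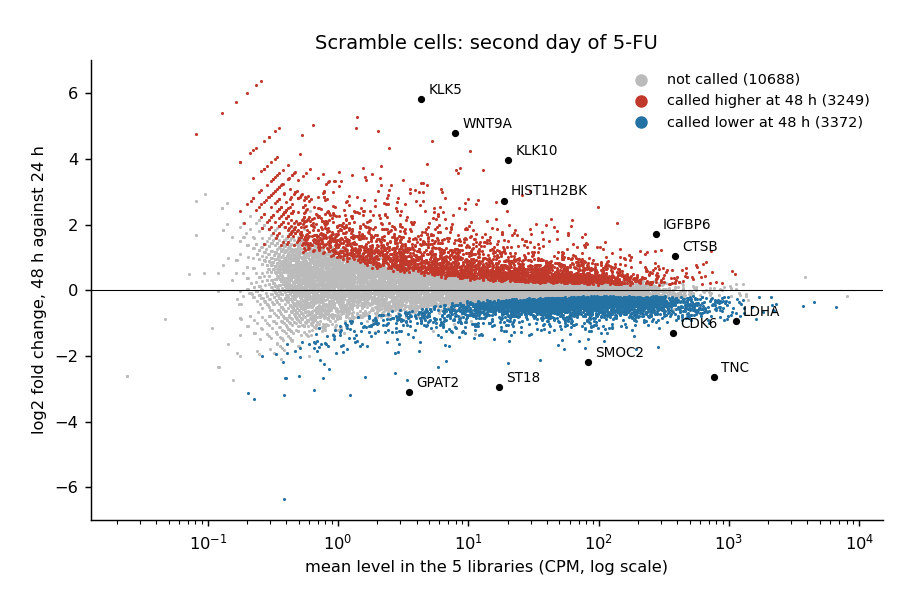
Log2 fold change of each tested gene at 48 h against 24 h of 5-FU in scramble cells (vertical axis) against its mean level in the 5 libraries in CPM (horizontal axis, log scale), 1 point per gene. Red points are the 3249 genes called higher and blue points the 3372 called lower, and the points far from 0 are mostly red, with TNC standing out among abundant genes at -2.65.

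Genes near silence at 24 h gave the largest rises. KLK5, a secreted serine protease of the kallikrein family (chromosome 19, 50943303 to 50953093, GRCh38), was at 0.172, 0.189 and 0.178 CPM at 24 h and 10.5 and 10.7 CPM at 48 h (log2 change 5.82 ± 0.36, adjusted p = 3.58e-09). Its neighbour KLK10 (chromosome 19, 51012739 to 51020175, GRCh38) was at 2.19, 3.08 and 3.55 CPM at 24 h against 45 and 47 CPM at 48 h, a 15.6-fold rise. WNT9A, a secreted Wnt ligand, stood at 0.805, 0.251 and 0.947 CPM and then at 19.2 and 18.5 CPM. Both groups of libraries were far apart for all 3 genes. PIM1, a serine/threonine kinase that promotes survival (chromosome 6, 37170203 to 37175426, GRCh38), was at 1.5, 1.26 and 1.01 CPM at 24 h and 22.5 and 25.1 CPM at 48 h (4.24 ± 0.22, adjusted p = 1.52e-11), after 0.732, 0.38 and 0.402 CPM without drug. GAST, which encodes the gastric hormone gastrin, was at 0.287, 0.189 and 0.355 CPM and then 5.26 and 6.28 CPM (4.33 ± 0.46, adjusted p = 2.98e-07). The remaining 3 of the 8 protein-coding genes with the largest rises at a mean of at least 1 CPM were SPTSSB, a small subunit of the enzyme that begins sphingolipid synthesis (5.27 ± 0.57, adjusted p = 8.37e-07), the aldehyde oxidase AOX1 (4.95 ± 0.69, adjusted p = 1.13e-05) and the adenylate kinase AK5 (4.85 ± 0.41, adjusted p = 4.66e-08). Most of these genes rested on few counts per library at 24 h. The lowest count was 0 for SPTSSB and AOX1, 1 for AK5, 3 for KLK5 and GAST and 4 for WNT9A, so their folds are loose. It was 17 for PIM1 and 38 for KLK10.

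TNC was the most abundant of the 8 protein-coding genes with the largest falls at a mean of at least 1 CPM. TNC encodes the extracellular matrix glycoprotein tenascin-C (chromosome 9, 115019578 to 115118257, GRCh38). Untreated libraries had 969, 1057.9 and 1047 CPM, 24 h libraries 1132.7, 1229.8 and 1120.9 CPM and 48 h libraries 181 and 190 CPM. It thus rose slightly on the first day (log2 change 0.18 ± 0.06, adjusted p = 0.0293), and dropped 6.26-fold on the second (-2.65 ± 0.08, adjusted p = 6.95e-15). ST18, a zinc finger transcription factor, was at 31.1, 26.3 and 33.5 CPM untreated, 27.5, 27.4 and 24.6 CPM at 24 h and 3.15 and 3.64 CPM at 48 h. For ST18 the first day brought no called change (-0.19 ± 0.09, adjusted p = 0.103) and the second a large fall (-2.96 ± 0.14, adjusted p = 3.25e-12). SMOC2, a matricellular calcium-binding protein found in intestinal stem cells, went from 173, 174 and 166 to 115, 127 and 120 and then 26.3 and 26.1 CPM (-2.20 ± 0.09, adjusted p = 7.01e-13 from 24 h to 48 h). PIR, an iron-binding nuclear protein, fell from 27.5, 31.3 and 28.8 to 6.95 and 5.58 CPM. The other 4 of the 8 largest falls were lower in abundance: GPAT2, a mitochondrial acyltransferase of glycerolipid synthesis (-3.11 ± 0.29, adjusted p = 5.09e-08), the intestinal-type glucosidase homologue MGAM2 (-2.75 ± 0.24, adjusted p = 3.17e-08), the lectin-domain protein CHODL (-2.65 ± 0.34, adjusted p = 4.12e-06) and the mitochondrial ketoacyl reductase subunit HSD17B8 (-2.54 ± 0.30, adjusted p = 1.48e-06). Their lowest counts in a library were 3 for CHODL, 6 for GPAT2, 10 for MGAM2 and 12 for HSD17B8, so these folds are loose as well.

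**Figure D2:**
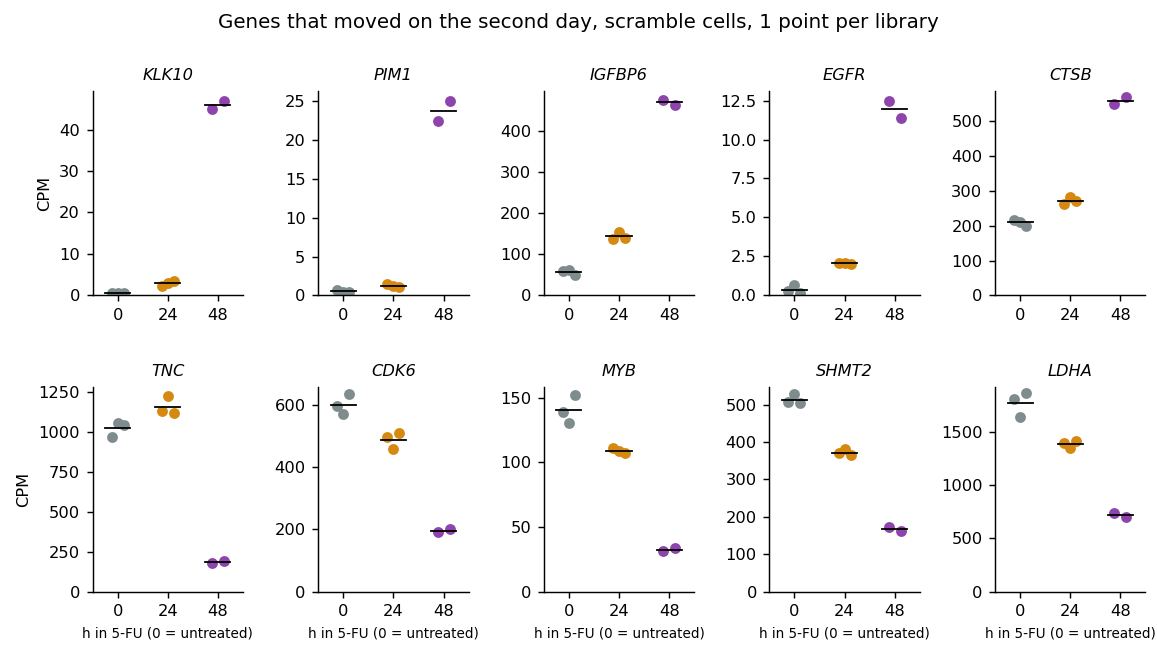
Level in CPM (vertical axis, from 0) of 10 genes in untreated, 24 h and 48 h scramble libraries (horizontal axis), 1 point per library, with a line at each group's mean. In the upper row the 48 h libraries lie above all others, and in the lower row they lie below all others, for TNC at 181 and 190 CPM against 1120.9 to 1229.8 CPM at 24 h.

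A minority of genes turned around. A gene was counted as turned when 24 h against untreated and 48 h against 24 h were both called in opposite directions. The 24 h libraries serve in both comparisons, so that error in them alone pushes the 2 changes apart. By this rule 685 genes turned (3.96% of tested genes), 339 that rose and then fell (1.96%) and 346 that fell and then rose (2%). By contrast 1387 genes rose on both days and 1656 fell on both, and 1516 rose and 1377 fell on the second day after no called change on the first. Of the 339 genes that rose then fell, 214 were not called at 48 h against untreated cells, 68 stayed above and 57 ended below the untreated level. Of the 346 that fell then rose, 248 were not called against untreated, 56 stayed below and 42 ended above. Turned genes were sensitive to the scaling and to the libraries: of the 685, 364 turned with total counts only and 523 with upper-quartile scaling, and the count was 395 without 48 h replicate 1 and 412 without 48 h replicate 2. Without the pair of libraries that stood apart 933 genes turned, of 7924 called on the second day. The shATF4 line offers libraries the rule did not use. There 218 of the 339 (64.3%) were called lower at 48 h against 24 h, and 225 of the 346 (65%) were called higher, while 12 and 10 were called in the opposite direction. For comparison, of all genes called in scramble cells, 70.8% of the lower and 66.8% of the higher ones were called the same way in shATF4 cells.

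The genes that rose and then fell are described first. AMZ1, an archaemetzincin metalloprotease, was at 0.659, 1.97 and 1.94 CPM untreated, 8.97, 10.3 and 10.1 CPM at 24 h and 1.69 and 2.64 CPM at 48 h (2.66 ± 0.27, adjusted p = 1.16e-07 on the first day, -2.17 ± 0.29, adjusted p = 6.94e-06 on the second). CEACAM5, the carcinoembryonic antigen used as a blood marker of colorectal cancer (chromosome 19, 41708585 to 41729798, GRCh38), was at 5.05, 5.83 and 4.42 CPM, then 14.8, 14.7 and 15.3 CPM and then 5.08 and 5.75 CPM. Its 48 h level did not differ from untreated beyond the test's threshold (0.08 ± 0.19, adjusted p = 0.718), and its reads may in part be shared with close CEACAM relatives. PCK1, the cytosolic enzyme that commits carbon to gluconeogenesis, was at 2.2, 2.73 and 1.88 CPM, 5.81, 5.59 and 6.28 CPM and 1.64 and 1.64 CPM. IHH, the Hedgehog ligand of intestinal epithelium, stood at 3.66, 5.01 and 5.22, 11.2, 9.62 and 9.24 and 4.55 and 4.7 CPM. In each of these 4 genes the 24 h libraries lay above all libraries of both other groups. DEC1 (-1.23 ± 0.24, adjusted p = 0.000426 on the second day), TMEM145 (-1.15 ± 0.28, adjusted p = 0.00277), EMILIN1, an elastin-associated matrix protein (-1.09 ± 0.22, adjusted p = 0.000469), and ANKRD33B (-1.10 ± 0.38, adjusted p = 0.0272) completed the 8 chosen by the size of their smaller step. The call for ANKRD33B was lost with total counts only and without 24 h replicate 1, 24 h replicate 3 or 48 h replicate 1.

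The opposite turn was led by histones. Of the 8 protein-coding genes with the largest fall and return, 7 were histone genes, and the other was ACTL8, an actin-like protein gene (1.24, 1.97 and 1.34 CPM, then 0.23, 0.251 and 0.118 CPM, then 1.81 and 1.41 CPM). HIST1H2AC, a histone H2A gene in the large cluster on chromosome 6 (chromosome 6, 26124145 to 26139116, GRCh38), was at 12.5, 10.7 and 11.3 CPM untreated, 2.53, 1.89 and 2.37 CPM at 24 h and 26.8 and 30.6 CPM at 48 h. It fell on the first day (-2.34 ± 0.15, adjusted p = 1.14e-10) and rose 12.6-fold on the second (3.66 ± 0.15, adjusted p = 5.69e-13), to above its untreated level (1.32 ± 0.12, adjusted p = 8.56e-09). The H2B gene HIST1H2BK (chromosome 6, 27146418 to 27146798, GRCh38) was at 25, 21 and 20.8 CPM, 5.69, 4.9 and 6.63 CPM and 35.3 and 41 CPM (2.73 ± 0.13, adjusted p = 3.35e-12 on the second day). HIST1H2BD, also H2B (chromosome 6, 26158146 to 26171349, GRCh38), was at 5.86, 6.28 and 6.56 CPM, 1.84, 1.7 and 0.71 CPM and 16.9 and 18.7 CPM (3.65 ± 0.20, adjusted p = 2.27e-11). In all 3 the groups were ordered 24 h, untreated, 48 h, with no overlap. HIST2H2BE on chromosome 1 (chromosome 1, 149884459 to 149886652, GRCh38) kept that order at lower levels, with 2.63, 3.61 and 3.21 CPM, 0.517, 0.377 and 1.07 CPM and 7.01 and 6.75 CPM (3.37 ± 0.27, adjusted p = 6.95e-09). HIST1H2BG (3.51 ± 0.43, adjusted p = 2.14e-06) and HIST1H2BC (2.75 ± 0.34, adjusted p = 2.73e-06) rose from the lowest levels among the 7 histone genes, with HIST1H2BC at 0.517, 0.377 and 0.533 CPM and then 3.74 and 2.76 CPM. HIST3H2A regained most of its level, with 10.2, 12.2 and 9.71 CPM, 2.59, 2.39 and 2.13 CPM and 8.18 and 8.1 CPM (-0.40 ± 0.15, adjusted p = 0.0229 at 48 h against untreated). Many histone genes have near-identical coding sequences, and the handling of reads that match several copies is not stated.

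Upstream of these genes, RefSeq (GRCh38.p14) holds the 130 bases before the start site of 5 of them, shown because the genes moved together and because their promoters share short motifs. Capitals mark the octamer ATTTGCAT in either orientation, a CCAAT box on the strand shown, and TATAAA.
HIST2H2BE (now H2BC21), chr1:149886683-149886812, minus strand: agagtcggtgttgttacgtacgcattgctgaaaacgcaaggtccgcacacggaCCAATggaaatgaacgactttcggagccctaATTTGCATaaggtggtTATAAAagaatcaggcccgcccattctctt
HIST1H2BG (now H2BC8), chr6:26216689-26216818, minus strand: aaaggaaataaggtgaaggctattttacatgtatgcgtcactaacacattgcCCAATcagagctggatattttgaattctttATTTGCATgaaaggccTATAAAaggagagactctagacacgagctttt
HIST1H2BK (now H2BC12), chr6:27146859-27146988, minus strand: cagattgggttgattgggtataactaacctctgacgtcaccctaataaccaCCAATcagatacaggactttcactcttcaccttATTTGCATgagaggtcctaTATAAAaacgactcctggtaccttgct
HIST1H2BD (now H2BC5), chr6:26157991-26158120, plus strand: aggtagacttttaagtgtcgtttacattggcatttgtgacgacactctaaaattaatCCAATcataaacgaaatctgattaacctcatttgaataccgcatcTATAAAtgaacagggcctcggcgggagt
HIST1H2AC (now H2AC6), chr6:26124042-26124171, plus strand: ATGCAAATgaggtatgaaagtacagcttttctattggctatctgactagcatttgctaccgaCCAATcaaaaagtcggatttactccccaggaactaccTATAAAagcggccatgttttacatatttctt
Stretches run from base -130 to base -1 on the gene's own strand. HIST1H2BD holds CCAAT and TATAAA but no octamer. Windows of 250 bases before to 50 after the start were found for 11926 of the tested genes. A gene with more than 1 listed start was counted if any of its windows held the letters. The octamer on either strand was present for 9 of the 14 genes of the histone list with a window (64.3%) and for 1.84% of all. The windows of HIST1H2AC and HIST1H2BC, of HIST1H2BG and HIST1H2AE, and of HIST1H2BJ and HIST1H2AG overlap on opposite strands, with mirrored motif positions. Each pair thus counts the same octamer and CCAAT letters for both genes. CCAAT on either strand was present in 13 of 14 (92.9%) against 42.3%, and TATAAA on the gene's strand in 9 of 14 (64.3%) against 5.64%. Among all genes that fell then rose, 14 of the 247 with a window held the octamer (5.67%). These 14 include the listed histones HIST1H2AC, HIST1H2BC, HIST1H2BK, HIST2H2BE, HIST1H2BJ, HIST1H2BG, HIST1H2AE and HIST1H2AG. This share thus counts the histone promoters again. A match describes letters in the window only.

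**Figure D3:**
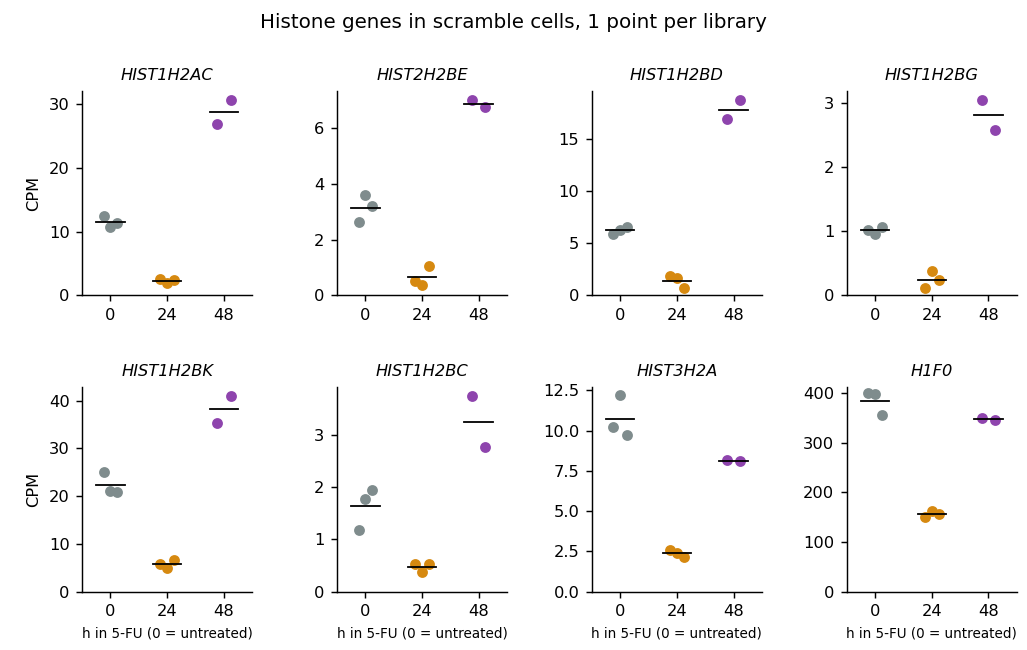
Level in CPM (vertical axis, from 0) of 8 histone genes in untreated, 24 h and 48 h scramble libraries (horizontal axis), 1 point per library, with a line at each group's mean. The 24 h libraries are the lowest for all 8 genes, and the 48 h libraries are above the untreated ones for 6 of them, with HIST3H2A and H1F0 below all untreated libraries.

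Across a list of 15 tested replication-dependent histone and linker histone genes, 13 rose on the second day and none fell, with a median log2 change of 2.73, against 18.8% of all genes higher and a median of 0.02. On the first day 13 of the 15 had fallen, against 22.2% of all tested genes, with a median of -1.94. In all 11 of the 15 turned around. The 2 members that were not called on the second day were HIST1H2BH (1.39 ± 0.65, adjusted p = 0.0964) and HIST1H1E, which was at 0.057, 0 and 0 CPM at 24 h and 0.117 and 0.235 CPM at 48 h. Not all members depend on replication: H1F0, the linker histone H1.0 of resting and differentiating cells (chromosome 22, 37805093 to 37807436, GRCh38), was the most abundant, at 400, 398 and 356 CPM, then 150, 163 and 157 CPM, then 351 and 346 CPM (1.15 ± 0.07, adjusted p = 2.4e-10 on the second day). Counting every tested gene whose symbol starts with HIST1 to HIST4, a group formed after values were seen, 25 of 31 rose on the second day and 1 fell, and 16 had fallen before they rose. Of those 16, 10 ended above the untreated level. In shATF4 cells 14 of the 15 listed genes rose from 24 h to 48 h, with a median of 2.56, against 23.7% of all tested genes. The rise of HIST1H2AC was smaller in that line (log2 change 2.66 ± 0.13, adjusted p = 7.17e-12; difference between the lines 0.99 ± 0.21, adjusted p = 0.00515).

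DNA replication genes that were called on the second day were mostly lower, and called mitotic genes mostly higher. In the list of 44 tested replication and G1/S genes, 23 fell and 3 rose on the second day, with a median of -0.23. On the first day 22 of them had risen and 7 had fallen, where 21.8% of all tested genes rose and 22.2% fell. There were 10 that rose and then fell. RRM1, the large subunit of ribonucleotide reductase (chromosome 11, 4094707 to 4138876, GRCh38), was at 384, 358 and 421 CPM untreated, 541, 523 and 547 CPM at 24 h and 352 and 340 CPM at 48 h (-0.63 ± 0.07, adjusted p = 5.99e-07). DTL, an adaptor that directs replication proteins to degradation, was at 94.9, 89.9 and 108, 152, 145 and 148 and 90.4 and 97.9 CPM (-0.65 ± 0.08, adjusted p = 2.67e-06). In both genes the 24 h libraries were the highest. The helicase cofactor CDC45 (-0.46 ± 0.10, adjusted p = 0.00119) and the phosphatase CDC25A (-0.40 ± 0.07, adjusted p = 0.0001) turned the same way. POLA1, the catalytic subunit of the polymerase that primes DNA synthesis, had not been called on the first day (0.11 ± 0.07, adjusted p = 0.203) and showed the deepest fall of the list, from 204, 207 and 207 to 97.5 and 92.7 CPM (-1.12 ± 0.08, adjusted p = 1.09e-09).

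Some members of the list rose or were not called. The transcription factor E2F1, which drives S-phase entry, rose from 102, 115 and 103 to 159 and 179 CPM (0.66 ± 0.09, adjusted p = 4.31e-06), and E2F2 rose as well (0.52 ± 0.10, adjusted p = 0.000386). The cyclin E genes, which had risen on the first day, were not called on the second: CCNE1 was at 7.83, 9.96 and 10.9 CPM, 27.7, 26.2 and 28 CPM and 27.6 and 25 CPM, and CCNE2 changed by -0.08 ± 0.12, adjusted p = 0.602. RRM2, the small reductase subunit, also stayed without a call (0.11 ± 0.09, adjusted p = 0.369). Only MCM6, a subunit of the replicative helicase, fell and then rose among these 44 genes (251, 241 and 259, 182, 188 and 186 and 232 and 229 CPM). With total counts only, 12 of the 44 were lower and 8 higher, and the median was -0.09.

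Among 37 tested G2 and mitosis genes, 16 rose (43.2%, against 18.8% of all tested genes) and 4 fell (10.8%, against 19.5%) on the second day. Their median was 0.20, after 26 had fallen and 1 had risen on the first, where 22.2% of all tested genes fell and 21.8% rose. There were 11 that fell and then rose. CENPA, the centromeric histone H3 variant (chromosome 2, 26764289 to 26801067, GRCh38), was at 34.2, 29.4 and 32.8 CPM, 18.6, 20.5 and 19.9 CPM and 31.2 and 32.2 CPM with no called difference left from untreated (0.69 ± 0.09, adjusted p = 8.48e-06 on the second day, -0.02 ± 0.09, adjusted p = 0.876 against untreated). The mitotic kinesin KIF20A was at 104, 105 and 108, 46.7, 50.7 and 51.4 and 69.4 and 71.5 CPM, a return of part of the loss (0.51 ± 0.09, adjusted p = 0.000102). HMMR, a spindle protein, regained less, with 88.1, 78.3 and 97.1, 29.1, 31.7 and 31.5 and 41.6 and 41.9 CPM (0.44 ± 0.10, adjusted p = 0.00115). Mitotic kinase genes that had dropped on the first day showed no called return: PLK1 changed by 0.10 ± 0.08, adjusted p = 0.323 and AURKA by -0.03 ± 0.08, adjusted p = 0.816. The cyclin genes were divided, with CCNB2 higher (0.46 ± 0.11, adjusted p = 0.00292; lost without 48 h replicate 1), CCNB1 not called (0.15 ± 0.09, adjusted p = 0.21) and CCNA2 lower (-0.35 ± 0.07, adjusted p = 0.000719). FOXM1, a transcription factor of mitotic genes, rose and then fell (-0.22 ± 0.08, adjusted p = 0.0247), a call that was lost with upper-quartile scaling, total counts only and a stricter count filter, and without 24 h replicate 1, 48 h replicate 1 or 48 h replicate 2. The number of mitotic genes called higher rested on the 48 h libraries, with 6 higher without replicate 1 and 11 without replicate 2. In shATF4 cells 23 of the 37 rose and 3 fell from 24 h to 48 h, where 23.7% of all tested genes rose and 24.5% fell.

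**Figure D4:**
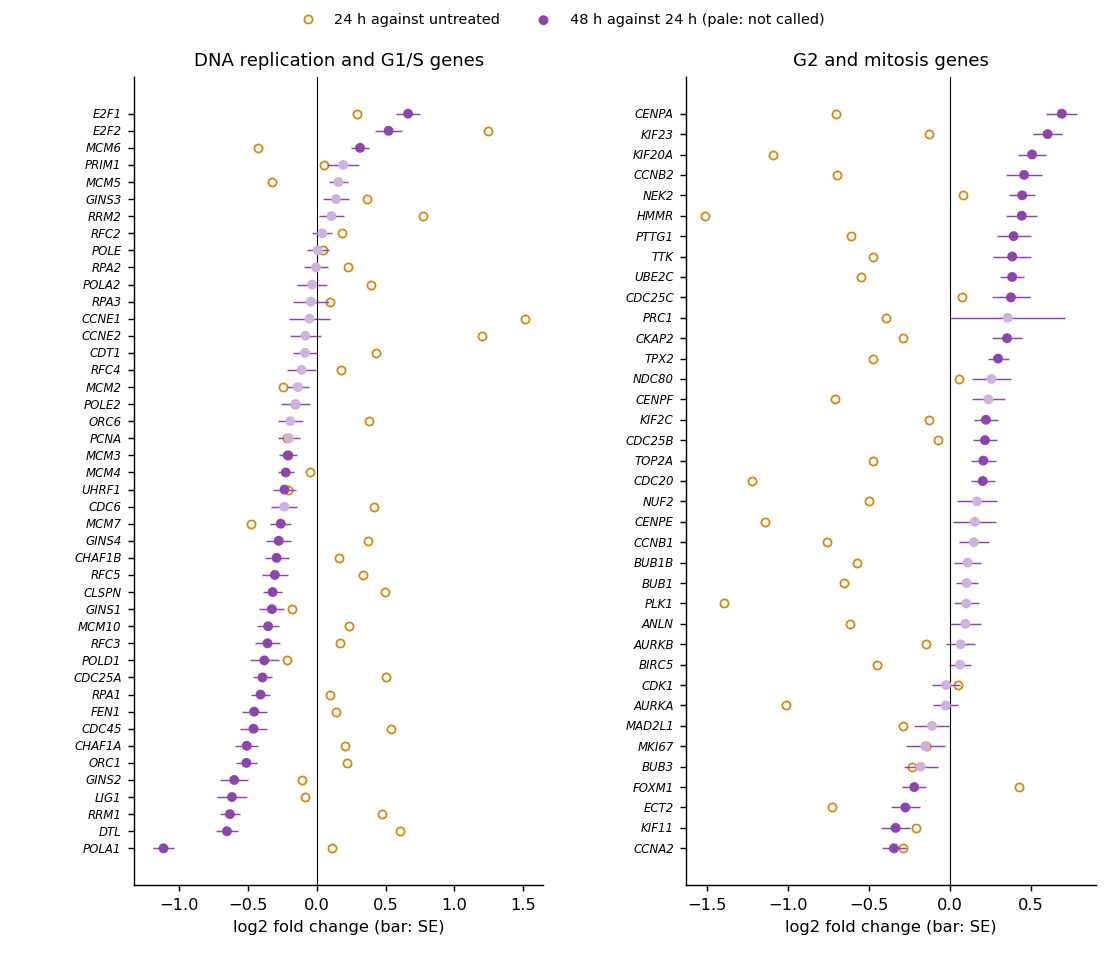
Log2 fold change (horizontal axes) of each tested member of the DNA replication list (left) and the G2 and mitosis list (right), in rows ordered by the second-day change. Filled points with SE bars are 48 h against 24 h (pale where not called) and open points 24 h against untreated, both of which use the 24 h libraries. Open points lie mostly above 0 on the left and below 0 on the right, and filled points the other way.

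The CDK inhibitor genes CDKN1A and CDKN2B went on rising. CDKN2B, the more abundant, was at 25.8, 26.6 and 21.9 CPM untreated and 71.5, 76.2 and 75.5 CPM at 24 h. At 48 h it was at 97.8 and 97.9 CPM (0.40 ± 0.10, adjusted p = 0.00336). CDKN1A, which encodes the CDK inhibitor p21 (chromosome 6, 36676460 to 36687339, GRCh38), was at 2.27, 1.08 and 0.737 CPM untreated, 18.4, 20.4 and 21.1 CPM at 24 h and 49.8 and 50.5 CPM at 48 h (1.33 ± 0.14, adjusted p = 2.85e-07). CCNG2, a cyclin linked to cell cycle arrest, rose mostly on the second day, with 15, 10.7 and 9.85, 15.5, 17.2 and 14.4 and 50.2 and 52.6 CPM (1.71 ± 0.13, adjusted p = 5.67e-09). The groups did not overlap between 24 h and 48 h for CDKN1A, CDKN2B or CCNG2. CDK6, the kinase partner of D-type cyclins (chromosome 7, 92604921 to 92836594, GRCh38), fell from 499, 458 and 510 to 193 and 200 CPM (-1.31 ± 0.12, adjusted p = 4.57e-08). Among 19 CDK inhibitors and cyclins, 6 rose (31.6%, against 18.8% of all tested genes) and 3 fell (15.8%, against 19.5%), with a median of 0.09. Among 27 known p53 targets 10 rose (37%, against 18.8% of all tested genes) and 2 fell (7.41%, against 19.5%), with a median of 0.06. The members that rose included TP53INP1, a stress-induced regulator of autophagy and death (1.67 ± 0.17, adjusted p = 2.58e-07), the death receptor FAS (1.02 ± 0.25, adjusted p = 0.00289) and the BH3-only protein gene PMAIP1 (0.71 ± 0.10, adjusted p = 7.14e-06), while GADD45A (0.02 ± 0.10, adjusted p = 0.903) and BTG2 (-0.02 ± 0.10, adjusted p = 0.898) were not called. MDM2, the p53 ubiquitin ligase, fell (-0.44 ± 0.13, adjusted p = 0.0108), a call that was lost with total counts only and without 24 h replicate 1, 48 h replicate 1 or 48 h replicate 2. SW620 cells are known to carry mutant p53.

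In the list of 14 BCL2 family genes, which promote or restrain cell death, 5 rose (35.7%, against 18.8% of all tested genes) and 1 fell. BMF, a pro-apoptotic BH3-only protein gene (chromosome 15, 40087890 to 40108892, GRCh38), was at 1.61, 0.951 and 2.01 CPM untreated, 1.73, 2.2 and 1.78 CPM at 24 h and 11.6 and 10.1 CPM at 48 h (2.51 ± 0.22, adjusted p = 2.2e-08). Its first-day change was not called (0.32 ± 0.26, adjusted p = 0.326). BCL2L1, which encodes the survival protein BCL-XL and its short pro-apoptotic form, rose from 277, 288 and 270 to 408 and 405 CPM (0.55 ± 0.06, adjusted p = 1e-06), and MCL1, another survival protein gene, fell (-0.28 ± 0.07, adjusted p = 0.00234; lost with total counts only). Of 21 death receptors, ligands and caspases 5 rose (23.8%) and 3 fell (14.3%), near the shares among all tested genes. The death ligand TNFSF10 rose then fell (14.3, 12.7 and 15.9, 26.2, 24.5 and 22.5 and 18 and 17.9 CPM). Its second-day call (-0.44 ± 0.16, adjusted p = 0.0306) was lost with upper-quartile scaling, total counts only and without 24 h replicate 1 or either 48 h library. The receptor TNFRSF10B rose (0.26 ± 0.07, adjusted p = 0.00719; lost with no count filter and without either 48 h library) and the decoy receptor TNFRSF10D rose more (1.08 ± 0.09, adjusted p = 1.64e-08).

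In the integrated stress response, kinases such as PERK limit translation and raise ATF4 protein. Of its 22 listed genes 12 rose on the second day (54.5%, against 18.8% of all tested genes) and 2 fell (9.09%, against 19.5%), with a median of 0.30. DDIT3, the transcription factor CHOP (chromosome 12, 57516588 to 57521737, GRCh38), was at 6.15, 6.47 and 5.29 CPM, 7.07, 8.61 and 7.64 CPM and 18.3 and 18.7 CPM (1.25 ± 0.14, adjusted p = 8.09e-07). PPP1R15A, the phosphatase subunit that reverses the translation block (chromosome 19, 48872392 to 48876057, GRCh38), was at 34.3, 36.9 and 33.2, 48.2, 51.4 and 48 and 127 and 135 CPM (1.41 ± 0.08, adjusted p = 3.6e-11). ATF3, a transcription factor induced by stress, rose from 2.59, 2.95 and 2.01 to 8.53 and 8.04 CPM (1.72 ± 0.20, adjusted p = 9.77e-07). For all 3 genes most of the rise came on the second day. CHAC1, a glutathione-degrading enzyme known as an ATF4 target (chromosome 15, 40952962 to 40956519, GRCh38), was at 6.15, 5.83 and 4.22, 8.28, 8.74 and 8.05 and 13.9 and 16.3 CPM (0.85 ± 0.16, adjusted p = 0.000199). ATF4 itself fell and then rose, with a second-day call (log2 change 0.25 ± 0.09, adjusted p = 0.0394) that did not survive the removal of any 1 of the 5 libraries. TRIB3 (-0.15 ± 0.09, adjusted p = 0.209) and the PERK gene EIF2AK3 (-0.01 ± 0.14, adjusted p = 0.973) were not called, and DDIT4, an inhibitor of mTORC1, fell (-0.83 ± 0.19, adjusted p = 0.00184).

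CHAC1's promoter is shown because it holds the letters of an ATF4-C/EBP composite site. Capitals mark TTGCATCA, the reverse complement of TGATGCAA, in bases -250 to -121 before the start site.
CHAC1, chr15:40953221-40953350, plus strand: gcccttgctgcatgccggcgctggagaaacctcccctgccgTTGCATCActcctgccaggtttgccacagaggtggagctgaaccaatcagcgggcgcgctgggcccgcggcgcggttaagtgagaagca
On either strand TGATGCAA was present in any listed window of 4 of the 20 stress response genes with a window (20%). The share among all 11926 genes was 0.696%. It can share letters with the octamer. In the list of amino acid synthesis and one-carbon enzymes, several of which are known ATF4 targets, 9 of 17 fell on the second day and 1 rose. MTHFD1L, a mitochondrial folate enzyme, was at 211, 217 and 224 CPM, 112, 107 and 118 CPM and 48 and 47.8 CPM (-1.23 ± 0.08, adjusted p = 3.45e-10). SHMT2, which takes a carbon from serine in mitochondria (chromosome 12, 57229327 to 57234935, GRCh38), was at 508, 528 and 504, 371, 380 and 364 and 173 and 163 CPM (-1.14 ± 0.07, adjusted p = 1.6e-10). PHGDH, the first enzyme of serine synthesis, was not called (0.17 ± 0.09, adjusted p = 0.143). Of 20 cytosolic aminoacyl-tRNA synthetases 13 fell and 1 rose.

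NF-kB targets stayed up, and part of them rose further. In the list of 24 TNF and NF-kB target genes, 22 had risen on the first day, against 21.8% of all tested genes. On the second 12 rose and 1 fell, with a median of 0.31, and none turned around. ICAM1, a leukocyte adhesion molecule (chromosome 19, 10270835 to 10286615, GRCh38), was at 2.42, 2.54 and 1.68 CPM, 12.4, 14.3 and 12 CPM and 26.9 and 29.9 CPM (1.14 ± 0.15, adjusted p = 4.54e-06). The chemokine gene CCL20 was at 10.5, 9.38 and 9.65, 52.5, 42 and 48.2 and 87.6 and 82.1 CPM (0.83 ± 0.13, adjusted p = 2.65e-05), and CXCL1 rose from 36.8, 32.9 and 36.1 to 62.7 and 63.2 CPM (0.83 ± 0.11, adjusted p = 7.38e-06). Feedback inhibitors of the pathway did not climb with them: NFKBIA changed by -0.05 ± 0.09, adjusted p = 0.674 and TNFAIP3 by -0.12 ± 0.10, adjusted p = 0.367, neither called. TNF itself was at 0.805, 0.88 and 0.829 CPM at 24 h and 1.11 and 0.822 CPM at 48 h, with no called change, and CXCL8 was not called either (0.24 ± 0.15, adjusted p = 0.218). NFKB1 was the 1 member that fell (-0.24 ± 0.08, adjusted p = 0.0257), a call lost with upper-quartile scaling, total counts only and no count filter, and without 24 h replicate 1, 24 h replicate 3 or either 48 h library.

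Interferon-stimulated genes rose without exception among those called, 13 of 21, with a median of 0.69. IFI6, a mitochondrial antiviral protein gene (chromosome 1, 27666061 to 27672218, GRCh38), was at 15.7, 16.4 and 13.1 CPM, 23.6, 28.4 and 20.4 CPM and 81.9 and 86.2 CPM (1.80 ± 0.13, adjusted p = 1.62e-09). IRF7, the transcription factor that amplifies interferon, was at 9, 8.43 and 6.9, 12.6, 14.6 and 12.4 and 32.6 and 33.5 CPM (1.32 ± 0.14, adjusted p = 3.15e-07), and the ubiquitin-like modifier ISG15 rose 1.98-fold (0.98 ± 0.09, adjusted p = 4.75e-08). IRF1, a transcription factor of the same response, was not called (0.07 ± 0.10, adjusted p = 0.646). Among 15 MHC class I presentation genes 8 rose and none fell. HLA-B, a class I heavy chain, was at 10.2, 10.9 and 10 CPM, 17.4, 18.7 and 17.8 CPM and 73.1 and 70 CPM (2.0 ± 0.09, adjusted p = 3.72e-12). HLA genes are polymorphic and alike, so reads may be shared or lost between them. B2M, the class I light chain, rose from 359, 342 and 359 to 471 and 469 CPM (0.41 ± 0.12, adjusted p = 0.00994), a call that was lost without either 48 h library.

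Genes of EGF receptor signalling mostly rose. Of 11 genes of the EGF receptor family and its ligands 8 rose (72.7%, against 18.8% of all tested genes) and 2 fell (18.2%, near the 19.5% of all), with a median of 0.79. EGFR, the receptor (chromosome 7, 55019021 to 55211628, GRCh38), was at 0.293, 0.634 and 0.134 CPM untreated, 2.07, 2.07 and 2.01 CPM at 24 h and 12.5 and 11.4 CPM at 48 h (2.54 ± 0.26, adjusted p = 1.87e-07). The ligand AREG was at 1.02, 0.824 and 0.804, 8.45, 8.23 and 8.05 and 22.3 and 22.4 CPM (1.44 ± 0.12, adjusted p = 7.34e-09), and EREG was at 13.2, 10.4 and 13.8 CPM and then 24.9 and 26.5 CPM (1.04 ± 0.15, adjusted p = 1.15e-05). ERBB3, a kinase-impaired receptor of the family, fell (-0.31 ± 0.07, adjusted p = 0.00154), a call that was lost with total counts only. Immediate early genes are switched on within minutes by growth factors and stress. Of 29 listed AP-1 and immediate early genes 21 rose and 1 fell, with a median of 0.48. A link to the EGF receptor genes was not tested. DUSP5, a phosphatase that restrains ERK (chromosome 10, 110497838 to 110511544, GRCh38), was at 7.32, 6.72 and 7.7, 36.3, 38.3 and 40.1 and 104 and 101 CPM (1.42 ± 0.09, adjusted p = 1.43e-10). The AP-1 genes FOS (1.15 ± 0.16, adjusted p = 1.4e-05) and MAFF (1.57 ± 0.11, adjusted p = 8.7e-10) rose, and JUN was not called (0.06 ± 0.08, adjusted p = 0.608). MYC fell and then rose, with 379, 389 and 389, 242, 245 and 229 and 342 and 341 CPM (0.52 ± 0.07, adjusted p = 3.37e-06 on the second day).

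Genes of the cell surface and matrix diverged. CYR61 (chromosome 1, 85580761 to 85583962, GRCh38) and CTGF, matricellular proteins known as YAP targets, had no called change on the first day and rose on the second: CYR61 was at 3, 2.98 and 2.75, 3.62, 3.33 and 1.95 and 19 and 22.1 CPM (2.79 ± 0.20, adjusted p = 1.57e-09) and CTGF at 3.37, 3.42 and 2.75, 2.53, 2.07 and 2.31 and 12.6 and 9.69 CPM (2.26 ± 0.25, adjusted p = 5.01e-07). The 20 tested genes of mesenchyme and invasion included 11 that rose and 3 that fell. Besides TNC, those that fell were TGFBI, a secreted matrix protein (247, 237 and 252, 276, 290 and 288 and 150 and 150 CPM), and fibronectin, FN1 (-0.28 ± 0.09, adjusted p = 0.0176), whose call was lost with upper-quartile scaling, total counts only and without 48 h replicate 1. VIM, the mesenchymal intermediate filament, was not called (0.07 ± 0.09, adjusted p = 0.569). LAMA3, a laminin chain of the basement membrane, rose on both days and was at 25.7, 25 and 22.4, 134, 146 and 133 and 311 and 316 CPM (1.19 ± 0.08, adjusted p = 3.64e-10 on the second day). IGFBP6, an IGF-binding protein of the senescence-associated secretion list, reached 477 and 464 CPM from 138, 154 and 140 CPM (1.71 ± 0.09, adjusted p = 2.06e-11), and 8 of 13 members of that list rose and 1 fell.

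Proteases and their inhibitors formed the list with the highest median after the histones, 1.29, with 13 of 17 kallikreins, serpins and related proteases and inhibitors higher and none lower. Besides KLK5 and KLK10, KLK6 was at 32.4, 35.3 and 32, 41.1, 41.6 and 41.1 and 134 and 136 CPM (1.71 ± 0.09, adjusted p = 3.43e-11), KLK7 at 0.747, 1.07 and 0.888 and 7.47 and 7.75 CPM (3.07 ± 0.34, adjusted p = 5.04e-07), and the secreted protease inhibitor SLPI, which belongs to another inhibitor family, at 1.44, 2.01 and 2.37 and 14.5 and 12.9 CPM (2.82 ± 0.26, adjusted p = 4.57e-08). These genes are of stratified and glandular epithelia. Of 19 keratins 10 rose (52.6%, against 18.8% of all tested genes) and 4 fell (21.1%, near the 19.5% of all). KRT6A, a keratin of stressed epidermis with near-identical copies, rose (1.67 ± 0.18, adjusted p = 5.28e-07). The simple-epithelium pair KRT8 (-0.35 ± 0.08, adjusted p = 0.000932) and KRT18 (-0.21 ± 0.06, adjusted p = 0.00617) fell, the latter call being lost with upper-quartile scaling and total counts only. KRT20 of the intestine, up on the first day, was at 10.1, 13.3 and 10 CPM and then 11.6 and 10.3 CPM with no called change.

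Colon epithelial genes were mixed and stem cell genes mostly fell. Among 22 differentiation genes 10 rose (45.5%, against 18.8% of all tested genes) and 4 fell (18.2%, near the 19.5% of all). MUC13, a membrane mucin (chromosome 3, 124905442 to 124953819, GRCh38), was at 38.1, 40.7 and 42.5, 113, 116 and 112 and 224 and 224 CPM (0.98 ± 0.07, adjusted p = 1.73e-09), the trefoil peptide gene TFF1 rose (1.57 ± 0.33, adjusted p = 0.000742), and VIL1, the microvillus protein villin, fell from 289, 304 and 283 to 178 and 176 CPM (-0.72 ± 0.07, adjusted p = 6.49e-08). Of 21 Wnt targets and intestinal stem cell genes 13 fell and 3 rose, with a median of -0.35. MYB, a transcription factor of colonic progenitors (chromosome 6, 135181315 to 135219173, GRCh38), was at 139, 130 and 152, 111, 109 and 107 and 31.3 and 33.5 CPM (-1.75 ± 0.09, adjusted p = 8.02e-12). NOTUM, a secreted Wnt inhibitor and Wnt target, had lost most of its level on the first day and lost more on the second (1149.9, 1303.7 and 1014.5, 336, 362 and 335 and 160 and 191 CPM). LGR5, the stem cell receptor, rose slightly and then fell (75.1, 67.8 and 79.5, 84.6, 85.4 and 85 and 65.9 and 60.8 CPM), and AXIN2, a direct target, was not called (0.09 ± 0.08, adjusted p = 0.385).

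Most ribosomal protein and splicing factor genes fell further. Of 79 cytosolic ribosomal protein genes 62 fell on the second day and none rose, with a median of -0.55. On the first day 71 had fallen, against 22.2% of all tested genes. RPL3, of the large subunit (chromosome 22, 39312882 to 39320389, GRCh38), was at 1925.1, 1884 and 1894.4 CPM, 618, 629 and 608 CPM and 422 and 407 CPM (-0.58 ± 0.06, adjusted p = 2.92e-07), and RPL36 fell most of the 79 (-1.02 ± 0.12, adjusted p = 7.87e-07). Ribosomal protein genes have many processed pseudogenes that can take their reads. Of 32 ribosome biogenesis genes 21 fell and 1 rose, with nucleophosmin, NPM1, at 1710.4, 1465.6 and 1818, 831, 790 and 816 and 536 and 506 CPM (-0.64 ± 0.09, adjusted p = 1.15e-05) and the nucleolar methyltransferase FBL lower (-0.78 ± 0.10, adjusted p = 4.38e-06), while NOP56 had fallen on the first day (-0.96 ± 0.08, adjusted p = 7.49e-09) and was not called on the second (-0.09 ± 0.09, adjusted p = 0.446). Of 30 SR and hnRNP splicing factors 22 fell and 3 rose, with a median of -0.50. HNRNPA1 (chromosome 12, 54280193 to 54287088, GRCh38) was at 2501.4, 2357.7 and 2449.4, 1173.1, 1161.9 and 1196.1 and 642 and 634 CPM (-0.88 ± 0.09, adjusted p = 2.67e-07), and SRSF1 (-0.81 ± 0.10, adjusted p = 2.26e-06) and SRSF3 (-0.77 ± 0.11, adjusted p = 1.44e-05) fell with it. With total counts only 49 ribosomal protein genes were lower and 1 higher.

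**Figure D5:**
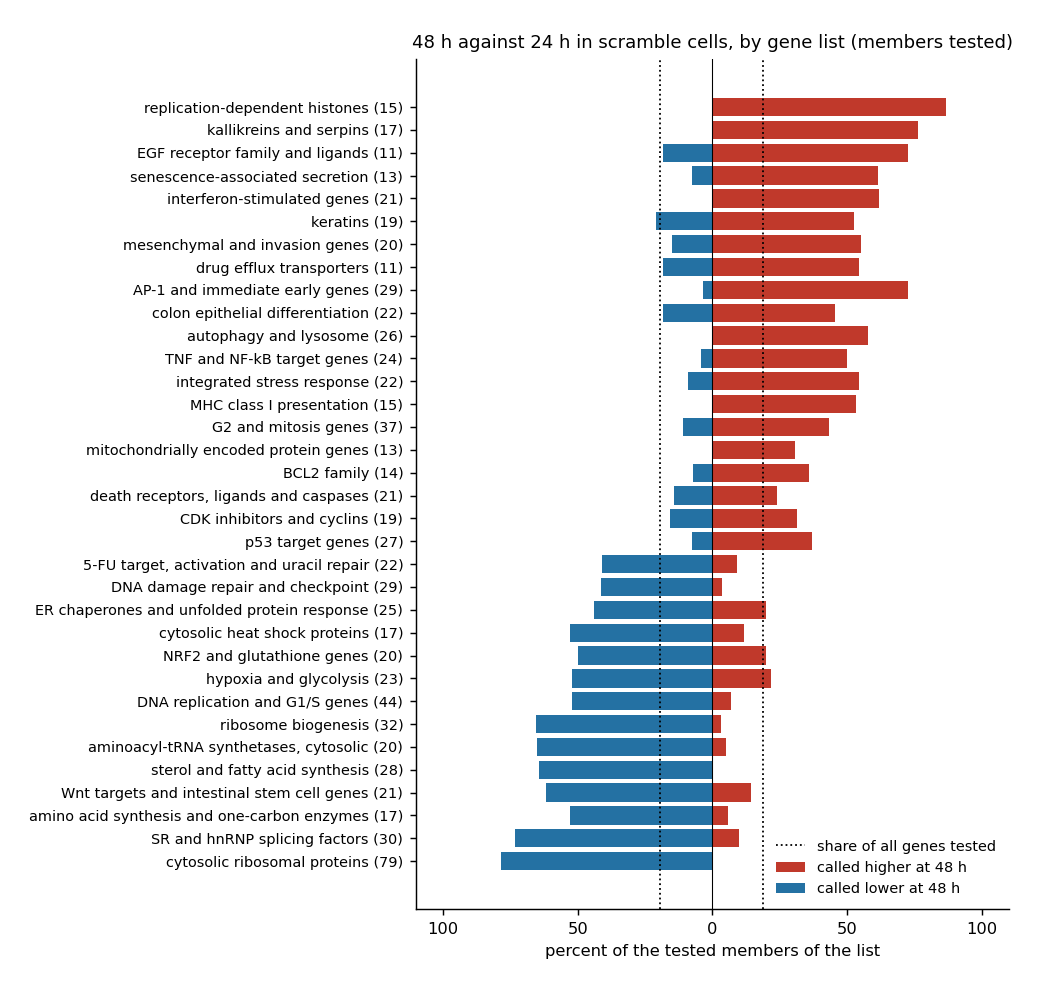
Percent of the tested members of each gene list (number tested in brackets) called higher (red, to the right) or lower (blue, to the left) at 48 h against 24 h of 5-FU in scramble cells, ordered by the list's median log2 change. Dotted lines mark the shares among all tested genes, 18.8% higher and 19.5% lower, with histones at the top and ribosomal proteins at the bottom.

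Most of the chaperone genes that were called fell. Of 17 cytosolic heat shock genes 9 fell and 2 rose. The mitochondrial chaperonin HSPD1, placed in that list, was at 1721.1, 1574.7 and 1806.7, 1120.8, 1123 and 1136 and 613 and 587 CPM (-0.91 ± 0.07, adjusted p = 7.29e-09), and HSPA8, the constitutive HSP70, was not called on the second day (-0.15 ± 0.08, adjusted p = 0.165) after a fall on the first (-1.24 ± 0.08, adjusted p = 7.78e-11). Among 25 genes of ER folding and the unfolded protein response, 11 were lower (44%, against 19.5% of all tested genes) and 5 higher (20%, near the 18.8% of all). HSPA5, the ER chaperone BiP, fell (-0.28 ± 0.06, adjusted p = 0.00152; lost with total counts only), whereas HERPUD1 (0.76 ± 0.09, adjusted p = 1.32e-06) and DNAJB9 (1.16 ± 0.20, adjusted p = 9.64e-05), both of ER-associated degradation, rose from levels that had not changed by the test on the first day. Of 28 sterol and fatty acid synthesis genes 18 fell and none rose. The sterol enzyme DHCR7 was at 281, 295 and 268, 243, 244 and 236 and 138 and 137 CPM (-0.81 ± 0.08, adjusted p = 6.43e-08).

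Metabolic and lysosomal genes moved in groups. Of 23 hypoxia and glycolysis genes 12 fell (52.2%, against 19.5% of all tested genes) and 5 rose (21.7%, near the 18.8% of all). Lactate dehydrogenase, LDHA (chromosome 11, 18394388 to 18408425, GRCh38), was at 1818.6, 1650.6 and 1868.9, 1402, 1357.1 and 1421.4 and 744 and 703 CPM (-0.95 ± 0.07, adjusted p = 3.23e-09), while the glucose transporter SLC2A1 fell and then rose past its untreated level (807, 811 and 721, 627, 639 and 614 and 914 and 938 CPM). Of 26 autophagy and lysosome genes 15 rose and none fell, with a median of 0.38. CTSB, the lysosomal protease cathepsin B, was at 217, 212 and 200, 263, 282 and 272 and 550 and 569 CPM (1.04 ± 0.06, adjusted p = 1.6e-10), and MAP1LC3B, the LC3 protein of autophagosome membranes, was at 58, 54.5 and 62.1, 86.8, 87.3 and 89.3 and 163 and 162 CPM (0.89 ± 0.07, adjusted p = 7.37e-09). Of 20 NRF2 and glutathione genes 10 fell (50%, against 19.5% of all tested genes) and 4 rose (20%, near the 18.8% of all). SLC7A11, the cystine importer, rose and then fell (17.3, 17.3 and 20.3, 26.6, 23.8 and 23.9 and 15 and 13.6 CPM), and FTH1, the ferritin heavy chain, fell and then rose (1105.5, 1122.3 and 1135.8, 849, 945 and 835 and 1317.7 and 1312 CPM), with pseudogenes that can share its reads. Of 13 mitochondrially encoded protein genes 4 rose (30.8%, against 18.8% of all tested genes), MT-ND1 from 460, 552 and 488 to 910 and 921 CPM (0.87 ± 0.21, adjusted p = 0.00223). In shATF4 cells none of the 13 rose and 4 fell, where 23.7% of all tested genes rose and 24.5% fell. A difference between the lines in this change was called for only 1 of the 13. Mitochondrial levels also differed among replicates of untreated cells, with MT-ND1 at 339, 771 and 360 CPM.

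None of the 22 listed genes of 5-FU's target, activation and uracil repair changed 2-fold on the second day. Of these 9 fell (40.9%, against 19.5% of all tested genes) and 2 rose (9.09%, against 18.8%), with a median of -0.14 that was 0 with total counts only. TYMS, the target thymidylate synthase, was at 55.7, 56.4 and 58.5 CPM, 59, 62.9 and 57.3 CPM and 46 and 44.3 CPM (-0.40 ± 0.08, adjusted p = 0.000719). UPP1, a uridine phosphorylase that converts the drug, rose (0.31 ± 0.08, adjusted p = 0.00309; lost without 48 h replicate 1), and UMPS (-0.40 ± 0.09, adjusted p = 0.00196) and the uridine kinase gene UCK2 (-0.41 ± 0.09, adjusted p = 0.00105) fell. DPYD, which degrades 5-FU, was below 0.5 CPM in all 5 libraries and was not called. Of 11 drug efflux transporters 6 rose (54.5%, against 18.8% of all tested genes) and 2 fell (18.2%, near the 19.5% of all). ABCG1, a sterol exporter of the family, was at 0.659, 2.54 and 1.61, 3.39, 3.46 and 3.14 and 18.6 and 18.6 CPM (2.48 ± 0.25, adjusted p = 1.6e-07), and the multidrug transporter ABCB1 rose from 16.1, 13.2 and 15.1 to 22 and 21.4 CPM (0.55 ± 0.12, adjusted p = 0.00112). Of 29 DNA repair and checkpoint genes 12 fell and 1 rose. FANCD2, of interstrand crosslink repair, rose and then fell to below its untreated level (99.8, 99.8 and 112, 123, 127 and 132 and 77.9 and 77.3 CPM). The checkpoint kinase WEE1, which holds cells out of mitosis, fell and then rose (63.2, 59.2 and 63.2, 36.1, 34.4 and 31.6 and 48.2 and 43.3 CPM).

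Markers of other cell types were few. Of the fibroblast list 4 genes passed the filter, of which 1 rose and 1 fell, of the leukocyte list 2, of which LYZ rose from 14.5, 14.3 and 15.5 to 29.4 and 31.8 CPM, and of the endothelial list 3, of which 2 rose. LYZ is also made by Paneth cells of the gut. Their part in the results above was not tested.

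The second-day change was next set against that of shATF4 cells, in which 4101 genes were higher (23.7% of tested genes) and 4248 lower (24.5%) at 48 h against 24 h. The change itself differed between the lines, by the interaction term, for 1481 genes (8.56%), 739 with a more positive change in scramble cells (4.27%) and 742 with a more negative one (4.29%). This count was 592 to 969 when 24 h replicate 1 or either 48 h library of scramble cells was left out, and 2441 without the pair of libraries that stood apart. SCG2, a secretory granule protein of neuroendocrine cells (chromosome 2, 223596940 to 223602503, GRCh38), rose in scramble cells from 22.7, 20.5 and 23.8 to 53.2 and 55.3 CPM (1.28 ± 0.14, adjusted p = 4.07e-07) and fell in shATF4 cells, where it was at 20.7, 17.9 and 27.6 CPM at 24 h and 9.22 and 8.58 CPM at 48 h (difference between the lines 2.59 ± 0.21, adjusted p = 6.36e-07). KRT81, a hair keratin with close relatives, rose in scramble cells (1.44 ± 0.10, adjusted p = 2.01e-09) and fell in shATF4 cells (-0.48 ± 0.11, adjusted p = 0.00161; difference between the lines 1.92 ± 0.16, adjusted p = 6.36e-07). C1RL, a protease related to complement C1r, was at 21.4, 22.9 and 19.7 and 20.1 and 20.6 CPM in scramble cells, not called, and at 12.6, 11.1 and 12.6 and then 34.7 and 40.4 CPM in shATF4 cells (difference between the lines -1.70 ± 0.15, adjusted p = 2.43e-06).

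Stress response genes were divided in this contrast. The second-day changes of PPP1R15A (difference between the lines 0.84 ± 0.11, adjusted p = 0.000146), DDIT3 (difference between the lines 1.12 ± 0.21, adjusted p = 0.00204) and the secreted stress factor GDF15 (difference between the lines 0.57 ± 0.12, adjusted p = 0.00466) were more positive in scramble cells. In shATF4 cells PPP1R15A rose (0.58 ± 0.08, adjusted p = 6.09e-06), and DDIT3 (0.13 ± 0.15, adjusted p = 0.474) and GDF15 (-0.13 ± 0.08, adjusted p = 0.206) were not called. The changes of ATF3 (difference between the lines -0.18 ± 0.29, adjusted p = 0.748) and CHAC1 (difference between the lines -0.52 ± 0.23, adjusted p = 0.172) had no called difference. DDIT3 was at 8.23, 9.12 and 11.5 CPM at 24 h and 9.94 and 11.3 CPM at 48 h in shATF4 cells. PHGDH rose in shATF4 cells (1.40 ± 0.09, adjusted p = 4.89e-10) and was not called in scramble cells (difference between the lines -1.23 ± 0.13, adjusted p = 1.48e-05). TNC fell in both lines, and less in scramble cells (difference between the lines 0.87 ± 0.10, adjusted p = 4.16e-05). KRT20 had no called change on the second day in scramble cells and fell in shATF4 cells, from 7.17, 7.19 and 8.15 to 1.65 and 1.75 CPM (difference between the lines 2.12 ± 0.26, adjusted p = 4.51e-05). For CDKN1A (difference between the lines -0.11 ± 0.20, adjusted p = 0.781), ICAM1 (difference between the lines -0.01 ± 0.21, adjusted p = 0.988), IFI6 (difference between the lines 0.02 ± 0.19, adjusted p = 0.965) and HIST1H2BK (difference between the lines 0.17 ± 0.18, adjusted p = 0.606) no difference between the lines was called, which does not show that they responded alike.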

How the data were processed

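The authors deposited whole-number read counts per gene of poly(A)-selected RNA, without normalization. The submitters' processing notes name featureCounts 1.5.0-p3 and the build GRCh38 (hg38). Aligner, annotation release and strand setting were not given in the sources used here, so overlapping, antisense and near-identical genes can share reads. All 16 libraries (14571611 to 17824188 counts) were fitted together in edgeR 4.0.16 under R 4.3.3. The filter was filterByExpr, scaling was TMM, the 6 groups were the terms, and 10 residual degrees of freedom were left. The quasi-likelihood test gave p-values adjusted by Benjamini-Hochberg over 17309 genes holding 99.9% of counts. Values after ± are standard errors derived from the F statistic. Levels are CPM on scaled library sizes and cover counting of reads without molecular identifiers. DESeq2 1.42.0 served as an alternative.

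Genes were named by rule: the top 8 protein-coding genes for rise, for fall and for each kind of turn (only called genes averaging 1 CPM or more whose groups did not overlap), the top interaction genes, and members of 37 lists. Members, lists and comparisons were chosen with earlier results of these data known. The searches for histone promoter motifs were added after values were seen. Gene coordinates are those of the deposited table. A few members of the lists are counted with their list and are not reported singly here.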

Additional observations from a re-analysis of the deposited data

Results flagged for a closer look

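Of 218 genes examined singly, 43 had a change from 24 h to 48 h that differed between scramble and shATF4 cells by the interaction term at an adjusted p under 0.05, against 8.56% of all tested genes. The genes with the largest such differences were among those chosen for description, and earlier results were known, so the 2 shares are not comparable. Values here are the log2 change in scramble cells minus that in shATF4 cells. No group had 4 to 10 libraries, so single libraries were not screened as outliers.

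Among stress and secreted factors the difference was 1.12 for DDIT3, 0.84 for PPP1R15A, 0.57 for GDF15 and 0.76 for IGFBP6. The EGF receptor ligands EREG and AREG differed by 0.87 and 0.6. In the immediate early group MAFF differed by 0.67 and MYC by 0.33, and the cyclin gene CCND1 by 0.41. Death and survival genes gave 1.16 for TNFRSF10D and 0.46 for BCL2L1.

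Among keratin, matrix and surface genes the differences were 1.92 for KRT81, 1.3 for KRT6A, 2.12 for KRT20, 0.37 for KRT18 and 0.34 for KRT8. They were 1.31 for FN1, 0.87 for TNC, 0.84 for LAMA3, 0.51 for the adherens junction gene CDH1 and 0.36 for MUC13, and -0.5 for VIM and -0.41 for VIL1. The kallikreins KLK10 and KLK6 gave 1.26 and 0.63. Secreted or hormone genes gave 2.59 for SCG2, 2.6 for GAST and -1.7 for C1RL.

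Serine and one-carbon enzymes had more negative changes in scramble cells, -1.23 for PHGDH and -0.37 for SHMT2. So did the exonuclease EXO1 (-0.75), the lamin LMNB1 (-0.33), the splicing factor SRSF1 (-0.49), the ER chaperone PDIA4 (-0.36), HLA-B (-0.6), ABCB1 (-0.84) and the stem cell receptor LGR5 (-0.57). Among genes with the largest falls or turns, PIR differed by -0.72, SMOC2 by -0.57, CHODL by -1.63, DEC1 by 1.44 and HIST1H2AC by 0.99. The glucose transporter SLC2A1 differed by 0.53.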

How the results depend on the processing

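Of 218 genes examined singly, 171 were called, and 144 of these kept their direction and call under each alternative run that tested them. The other 27 lost the call under some alternative, 18 of 47 uncalled genes gained one, and no called gene changed sign. With total counts only, 1947 genes were called lower. With a stricter filter (at least 50 counts in at least 2 libraries) 816 genes were called with a 2-fold change. Without both libraries that stood apart, an alternative chosen after seeing the data, 2441 genes differed between the lines. DESeq2's Wald test called 6301 genes, of which 99.1% were among the 6621. The count also rested on which libraries were fitted together. With only the 5 libraries compared, 8470 genes were called, 4125 higher and 4345 lower, and these held 98.6% of the 6621. With only the 8 scramble libraries 7266 genes were called.

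Leaving out 1 library at a time gave 4363 to 7485 genes called, 1991 to 3603 higher, 2372 to 3882 lower and 1167 to 1520 with a 2-fold change. It gave 395 to 885 turned genes, 208 to 444 that rose then fell and 181 to 441 that fell then rose, 274 to 547 turned genes called the same way in shATF4 cells, 592 to 1847 genes that differed between the lines, 209 to 250 of the genes named by rule called, and 22 to 23 lists with a median above 0. Where 1 of the 48 h libraries was left out, the lone library was assumed to vary like the other groups.

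Replicate numbers are shared between groups but nothing ties them to a culture or day. Deviations of same-numbered scramble libraries at 24 h and 48 h correlated at 0.193 and 0.266, and those of untreated and 24 h replicates 1, 2 and 3 at 0.007, 0.508 and 0.321, so that not every pair passed 0.1. With the replicate block 6711 genes were called, 751 turned and 1878 differed between the lines. Low counts limit the folds of genes that were near silence at 24 h or at 48 h.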
